A study of Mus musculus with 7 samples.

Results

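Lymphoid priming is the low-level transcription of lymphocyte genes in multipotent blood progenitors before any lymphocyte has formed. It is best known from the multipotent progenitors downstream of hematopoietic stem cells (HSCs), in which transcripts for recombination enzymes, the interleukin-7 receptor and B cell regulators are found beside myeloid ones. In the B lineage the program runs from cytokine receptors through transcription factors to the enzymes that cut and extend immunoglobulin gene segments and the adaptors of the pre-B cell receptor. The genes described here were 9 named genes of this program, Ltb, Il7r, Blnk, Cd52, Dntt, Rag1, Ebf1, Cnn3 and Ighm, taken by symbol from a count table of 23284 genes. A row was found for 8 of the 9, and Ighm was not analysed here. All 8 passed the filter on low counts that left 12917 genes for testing, and Il7r passed it only through its Hdc-GFPhi libraries.

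The libraries came from bone marrow HSCs of C57BL/6 mice in which green fluorescent protein (GFP) reports on Hdc, the histidine decarboxylase gene, whose product forms histamine. Cells were sorted by reporter brightness, and the question was which genes differ between bright cells, called Hdc-GFPhi (3 libraries), and dim cells, called Hdc-GFPlo (4 libraries), with each library made from 500 cells. The fraction of Hdc-GFPlo replicate 4 is written Hdc-GFP- in the labels, unlike the other 3. The sources used here do not give the age of the mice, the surface markers of the HSC gate or say that replicates came from different animals. The p-values therefore reflect only how far these libraries vary among themselves, and that variation may be technical. Total counts of the bright libraries were 21090553 to 23688672, and those of the dim libraries 19606124 to 22472061. Levels are CPM, counts scaled to the library size after TMM correction. A count of 0 allows a level of up to 3 counts, or 0.125 to 0.16 CPM depending on the library, and these floors cover counting error only. In RNA from pooled cells, fewer cells with a transcript and less transcript per cell cannot be told apart.

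The label of HSC was checked against 8 HSC markers, among them Kit, Procr, Slamf1 and Mecom. All 8 were detected in every library, with a summed level of 3089 to 3547 CPM in the bright libraries and of 3764 to 3912 CPM in the dim ones. Among 14 T and natural killer cell markers, the T cell genes Cd3e and Cd8a had no count in any library and Cd3g at most 1, whereas Cd4 (4.45 to 13.01 CPM), Lck (15.07 to 29.2 CPM), Nkg7 and Klrb1c were counted in every library. Among 9 mature B and plasma cell markers, Pax5, the B cell identity factor, had at most 4 counts, whereas Cd79b (59.2 to 89.6 CPM), Sdc1 and Cr2 were counted in every library. Some others were counted mainly in 1 or 2 libraries. The natural killer cell genes Il2rb and Ncr1 had 207 and 138 counts in Hdc-GFPhi replicate 3 and at most 1 in any other library, and the B cell gene Ms4a1 had 46 counts in Hdc-GFPhi replicate 3 and at most 2 elsewhere. Cd22 had 16 and 20 counts in Hdc-GFPhi replicates 2 and 3 and at most 1 elsewhere, and Fcer2a had 53 counts in Hdc-GFPlo replicate 4 and at most 4 elsewhere. By library, 4 to 9 of the 14 and 2 to 4 of the 9 markers had no count. Hdc itself had a mean level of 30.1 CPM with an SD of 10.002 (n = 3) in the bright libraries and of 14.7 CPM with an SD of 7.27 (n = 4) in the dim ones. It did not pass edgeR (adjusted p = 0.397). The groups overlapped in Hdc, with Hdc-GFPhi replicate 2 at 18.7 CPM and Hdc-GFPlo replicate 3 at 21.6 CPM.

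Promoter sequences are shown for 3 members whose transcripts followed different library patterns, Il7r, Blnk and Rag1. They are the RefSeq windows of build GRCm38.p6, from 250 bases before to 20 bases after the annotated start, written 5′ to 3′. The counts themselves were made on another build, mm9. Capitals mark matches on either strand to the core letters bound by Runx factors (TGTGGT), to an Ets-type site (CAGGAAG) and to the octamer of Oct factors (ATGCAAAT), motifs chosen with the sequences in view, and the matches do not overlap each other.
Il7r, chr15:9529857-9530126, minus strand: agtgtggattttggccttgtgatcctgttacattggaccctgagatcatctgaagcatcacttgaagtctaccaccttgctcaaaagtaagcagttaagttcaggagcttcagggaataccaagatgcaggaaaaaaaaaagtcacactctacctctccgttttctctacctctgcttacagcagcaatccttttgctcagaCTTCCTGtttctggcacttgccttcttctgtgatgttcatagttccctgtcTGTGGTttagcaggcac
Blnk, chr19:40994202-40994471, minus strand: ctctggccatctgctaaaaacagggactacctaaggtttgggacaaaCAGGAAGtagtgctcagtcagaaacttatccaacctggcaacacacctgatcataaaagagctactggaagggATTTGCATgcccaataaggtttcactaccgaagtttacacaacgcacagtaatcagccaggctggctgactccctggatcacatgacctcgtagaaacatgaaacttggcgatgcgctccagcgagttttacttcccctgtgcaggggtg
Rag1, chr2:101649513-101649782, minus strand: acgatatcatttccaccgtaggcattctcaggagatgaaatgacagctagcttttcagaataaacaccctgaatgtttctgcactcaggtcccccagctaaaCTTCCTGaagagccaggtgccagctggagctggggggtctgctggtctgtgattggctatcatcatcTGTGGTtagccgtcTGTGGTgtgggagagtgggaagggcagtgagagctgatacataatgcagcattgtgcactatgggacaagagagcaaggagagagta
In the Il7r window an Ets-type match began 48 bases before the start and a Runx match at base 4 after it. The Blnk window held the octamer from base -130 and an Ets-type match from base -203. Rag1 had 2 Runx matches, from bases -81 and -67, and an Ets-type match from base -148. The table held 8 full windows of 300 bases for 7 members, of which 3 had the Runx letters, 4 the Ets-type letters and 1 the octamer. Over all 32851 windows of that length these letters stood in 16.8%, 13.3% and 1.74%. Because the motifs were chosen with the sequences in view, the comparison cannot show an enrichment. A match is a stretch of letters and not a measured binding site.

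Il7r reached the level of the low-count filter (0.474 CPM before TMM correction) in Hdc-GFPhi libraries alone, so it had to differ and is left out of the counts over members that follow. The other 7 had higher values in Hdc-GFPhi than in Hdc-GFPlo, as did 51.6% of all genes tested, and none of the 8 passed edgeR's quasi-likelihood test over all genes. The log2 fold changes (Hdc-GFPhi minus Hdc-GFPlo) of the 7 ran from 0.25 for Ltb to 2.26 for Dntt, with a median of 1.06 against 0.01 over all genes tested. At an adjusted p of 0.05, 0 of 12917 genes (0%) passed by edgeR, 0 (0%) by limma, and 344 of 9895 genes (3.48%) by DESeq2. DESeq2 gave an adjusted p for 3 members, Dntt, Ltb and Cd52, and none of these passed. It gave none for the other 5, of which Blnk had an unadjusted DESeq2 p of 0.00175. With edgeR's p before adjustment held to 0.05, 3 of the 7 (Blnk, Cd52 and Cnn3) had higher values, where 4.92% of all genes tested were higher and 7.31% lower. The same 3 had every Hdc-GFPhi library above every Hdc-GFPlo library, where 6.02% of the genes tested did. The members were named with earlier results of these libraries known, so these shares are not independent evidence of a direction. The count of 3 at an unadjusted p under 0.05 was 1 without Hdc-GFPhi replicate 2, and 1 when Hdc-GFPhi replicate 1 was left out together with Hdc-GFPlo replicate 4.

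**Figure D1:**
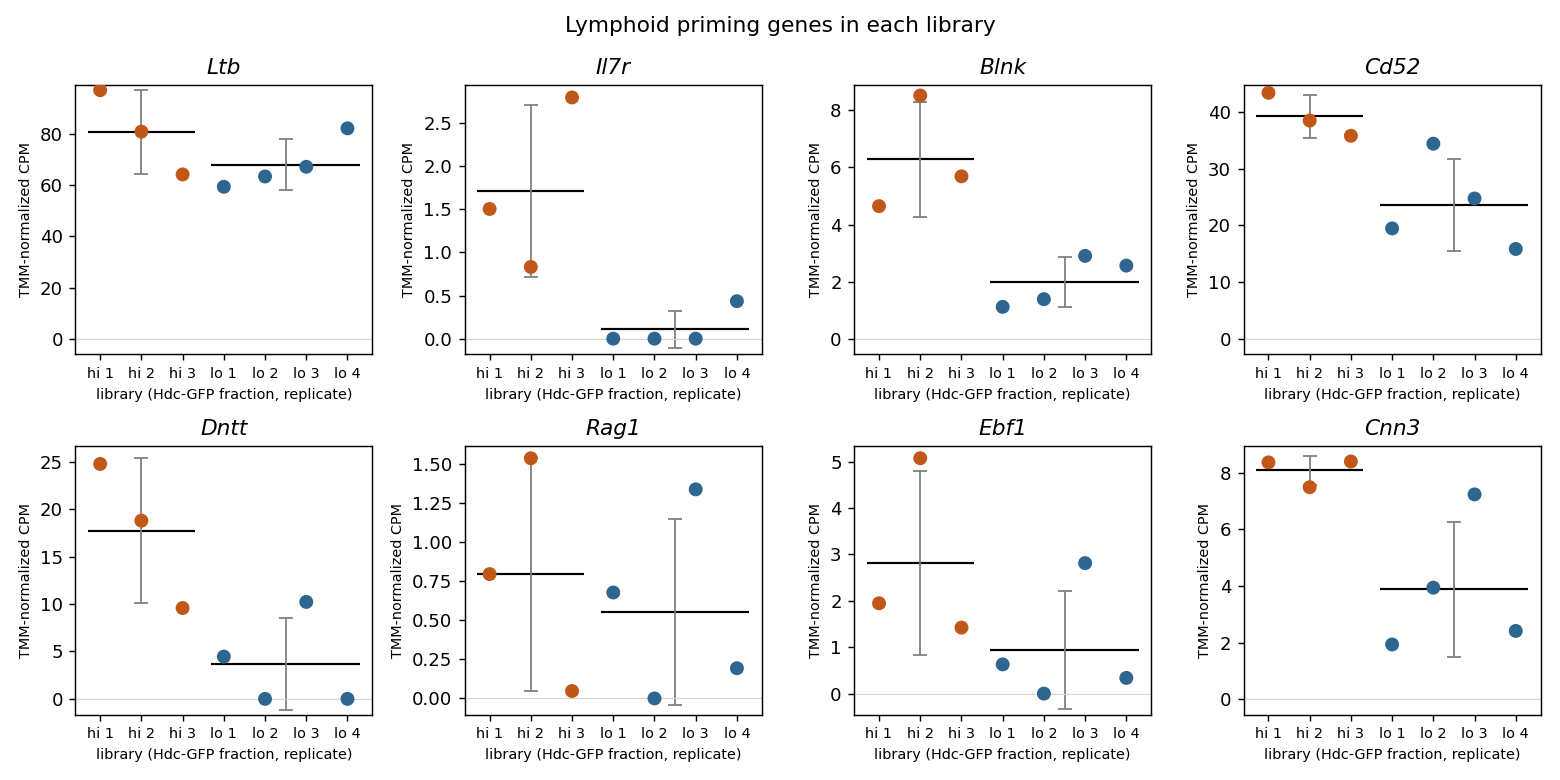
Level of each of the 8 members (y axis, TMM-normalized CPM, linear) in each library (x axis), with Hdc-GFPhi in orange and Hdc-GFPlo in blue. Black lines are group means and grey bars 1 SD (n = 3 and 4); Il7r, Blnk, Cd52 and Cnn3 show no overlap between the groups, and Ltb, Dntt, Rag1 and Ebf1 do.

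Il7r encodes the alpha chain of the interleukin-7 receptor, which carries the survival and growth signal of early lymphoid cells. It was counted 34, 20 and 59 times in Hdc-GFPhi replicates 1 to 3, or 1.504, 0.832 and 2.80 CPM. In Hdc-GFPlo it was counted 0, 0, 0 and 9 times, so only replicate 4 had any count (0.435 CPM). The lowest Hdc-GFPhi library thus lay above the highest Hdc-GFPlo library, though all 7 levels were low. The group means were 1.71 ± 0.999 CPM (SD, n = 3) and 0.109 ± 0.217 CPM (SD, n = 4), and edgeR gave a log2 fold change of 3.90 (SE 1.52, adjusted p = 0.351, unadjusted p = 0.0293). Because 3 of the 4 Hdc-GFPlo libraries were at 0, the size of this value rests on Hdc-GFPlo replicate 4, without which it was 8.21.

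Genes for partners of this receptor, and Flt3, had log2 fold changes of -0.14 to 0.27. Il2rg, the common gamma chain that pairs with the interleukin-7 receptor, was at 258 ± 13.6 against 274 ± 28.3 CPM (difference on the log2 scale -0.09, SE 0.10), and Jak3, the kinase bound to that chain, at 218 ± 13.7 against 207 ± 19.6 CPM (0.08, SE 0.10). Flt3, the receptor tyrosine kinase of multipotent and lymphoid progenitors, was at 66.3 ± 3.21 against 73.07 ± 14.1 CPM (-0.14, SE 0.16). Crlf2, the receptor for thymic stromal lymphopoietin, which also pairs with Il7r, was at 25.8 ± 5.61 against 21.4 ± 3.86 CPM (0.27, SE 0.21). None of these 4 genes passed edgeR, and neither did Il7r.

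Ltb encodes lymphotoxin beta, a membrane-bound cytokine of the tumor necrosis factor family, and was the most abundant member per kilobase of exon. Its levels were 97.3, 81.03 and 64.3 CPM in Hdc-GFPhi and 59.5, 63.5, 67.3 and 82.3 CPM in Hdc-GFPlo. The groups overlapped, with Hdc-GFPlo replicate 4 second among all libraries. Its log2 fold change was 0.25 (SE 0.16, edgeR adjusted p = 0.580). Lta, which encodes the partner subunit of the lymphotoxin trimer and lies close to Ltb and Tnf in the RefSeq gene order, had 0 counts in every library, and Tnf had 14 to 68 counts. Ltbr, the receptor for the trimer, had a log2 fold change of 0.01 (SE 0.13).

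Blnk is the adaptor that links the kinase Syk to downstream signalling at the pre-B and B cell receptors. Its counts were 105, 205 and 120 in Hdc-GFPhi, or 4.65, 8.52 and 5.69 CPM. In Hdc-GFPlo they were 23, 26, 65 and 53, or 1.11, 1.39, 2.90 and 2.56 CPM. Every bright library exceeded every dim one, and among the members Blnk had the smallest edgeR p. The log2 fold change was 1.66 (SE 0.49, adjusted p = 0.281, unadjusted p = 0.00772), with a range of 1.37 to 1.89 over the fits without 1 library. Genes for proteins on either side of the adaptor had small differences, with log2 fold changes of 0.04 (SE 0.08) for Syk, 0.02 (SE 0.11) for the kinase Btk and -0.03 (SE 0.11) for the phospholipase gene Plcg2.

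Cd52 encodes a short glycosylphosphatidylinositol-anchored surface peptide that is abundant on lymphocytes. It was at 43.4, 38.5 and 35.9 CPM in Hdc-GFPhi and at 19.5, 34.5, 24.8 and 15.9 CPM in Hdc-GFPlo. The groups did not overlap, although Hdc-GFPlo replicate 2 came within 2 CPM of the lowest bright library. The log2 fold change was 0.73 (SE 0.25, edgeR adjusted p = 0.307, unadjusted p = 0.0147), and DESeq2 gave an adjusted p of 0.112. In the GENCODE vM21 annotation 172 exon bases of Cd52 lie opposite exons of Crybg2, and the library kit does not mark strand, so reads from that stretch cannot be assigned to either gene.

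Cnn3 encodes calponin 3, an actin-binding protein. It was at 8.36, 7.48 and 8.39 CPM in Hdc-GFPhi, the narrowest relative spread of any member in either group, and at 1.94, 3.94, 7.23 and 2.42 CPM in Hdc-GFPlo. Hdc-GFPlo replicate 3 lay close below the bright libraries and the other 3 lay well below them. The log2 fold change was 1.06 (SE 0.47, edgeR adjusted p = 0.402, unadjusted p = 0.048), and it was 1.55 without Hdc-GFPlo replicate 3. An unconfirmed transcript annotated on the opposite strand, Gm42928, shares 538 exon bases with Cnn3.

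Dntt encodes terminal deoxynucleotidyl transferase, which adds untemplated nucleotides at the joints of rearranging receptor genes. Its counts were 560, 452 and 202 in the bright libraries and 92, 0, 229 and 0 in the dim ones. The levels were 24.8, 18.8 and 9.58 CPM against 4.46, 0, 10.2 and 0 CPM, so Hdc-GFPlo replicate 3 lay above Hdc-GFPhi replicate 3 while Hdc-GFPlo replicates 2 and 4 had no count at depths of 19606124 and 20756629. Means were 17.7 ± 7.65 CPM (SD, n = 3) and 3.67 ± 4.85 CPM (SD, n = 4), and the log2 fold change of 2.26 (SE 1.54) did not pass edgeR (adjusted p = 0.610, unadjusted p = 0.190). Over the fits without 1 library it ran from 1.85 to 3.56. Dntt and Blnk are near neighbours on chromosome 19 in the RefSeq gene order, with 2 entries, a noncoding RNA and a pseudogene, between them. They did not share the 0 counts, since Blnk was counted 26 and 53 times in the libraries where Dntt was not detected.

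Rag1 encodes the catalytic subunit of the recombinase that cuts antigen receptor genes. It had 18, 37 and 1 counts in Hdc-GFPhi and 14, 0, 30 and 4 counts in Hdc-GFPlo, and the groups overlapped. The mean level was 0.794 ± 0.745 CPM (SD, n = 3) and 0.553 ± 0.597 CPM (SD, n = 4), respectively (log2 fold change 0.51, SE 1.43, edgeR adjusted p = 0.914), and the fold change was -0.39 without Hdc-GFPhi replicate 2. Rag2, the partner subunit and next gene on chromosome 2, had counts of 109, 104 and 0 in the bright libraries and of 4, 9, 21 and 0 in the dim ones. Rag2 thus had high counts in Hdc-GFPhi replicates 1 and 2 alone, and neither subunit reached 2 counts in Hdc-GFPhi replicate 3. The log2 fold change of Rag2 was 2.90 (SE 1.496, edgeR adjusted p = 0.465). In GENCODE vM21, 80 exon bases of Rag1 are shared with B230118H07Rik on the same strand.

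Ebf1 encodes early B cell factor 1, a transcription factor required for B lineage specification. Its counts were 44, 122 and 30 in Hdc-GFPhi and 13, 0, 63 and 7 in Hdc-GFPlo, or 1.95, 5.07 and 1.42 CPM against 0.630, 0, 2.81 and 0.338 CPM. Hdc-GFPhi replicate 2 was highest and Hdc-GFPlo replicate 3 second, so the groups overlapped. The log2 fold change was 1.56 (SE 1.19, edgeR adjusted p = 0.637), 0.83 without Hdc-GFPhi replicate 2 and 3.09 without Hdc-GFPlo replicate 3.

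**Figure D2:**
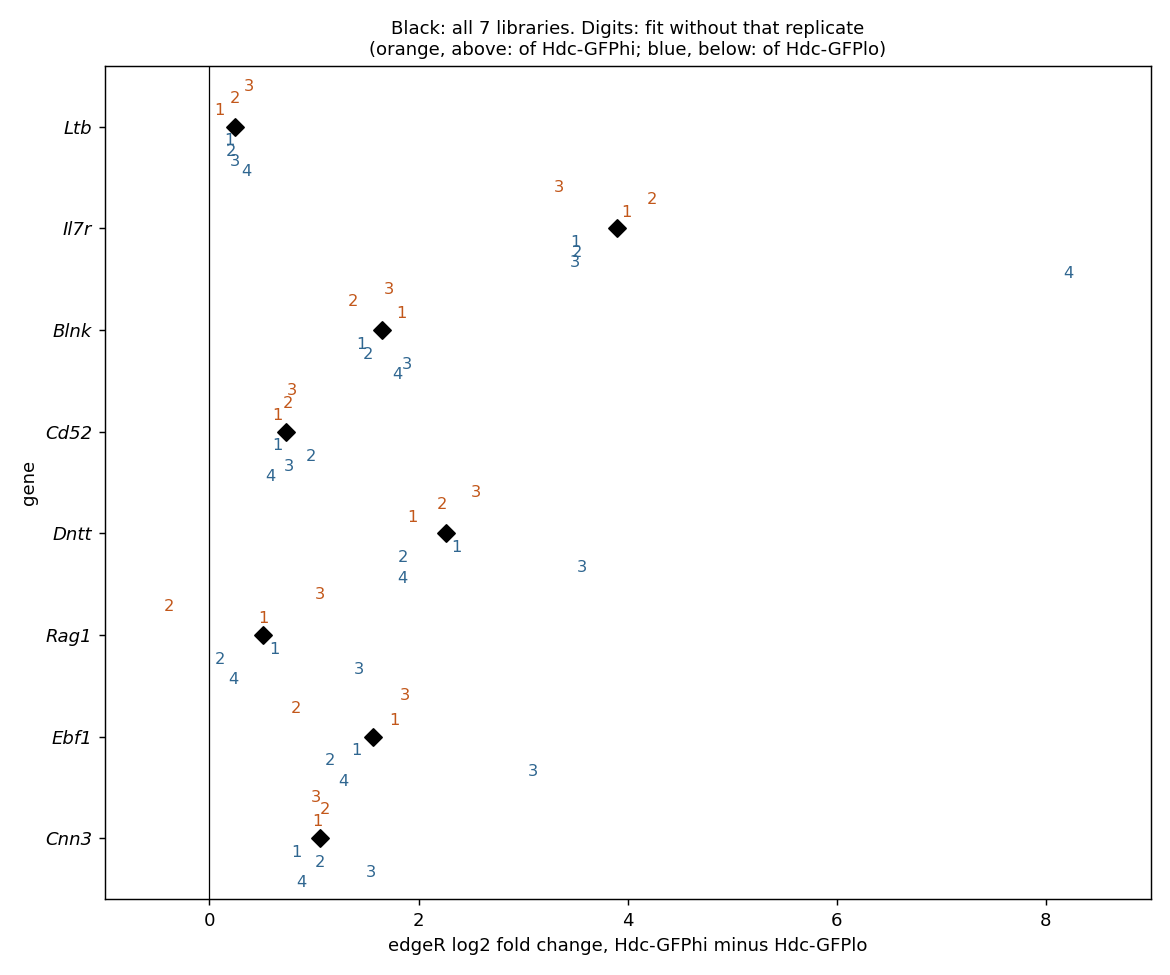
Log2 fold change of each member (x axis, Hdc-GFPhi minus Hdc-GFPlo) with all 7 libraries (black) and without each library in turn (digits give the replicate left out, orange of Hdc-GFPhi and blue of Hdc-GFPlo). Blnk stayed between 1.37 and 1.89, whereas Il7r reached 8.21 without Hdc-GFPlo replicate 4 and Rag1 fell below 0 (-0.39) without Hdc-GFPhi replicate 2.

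Scaled by exon length from GENCODE vM21, the members fell in the order Ltb, Cd52, Dntt, Cnn3, Blnk, Il7r, Ebf1 and Rag1 in Hdc-GFPhi. Per kilobase, Ltb was at 53.3 ± 10.9 CPM and Cd52 at 33.1 ± 3.24 CPM (SD, n = 3), while Dntt was at 7.73 ± 3.34, Cnn3 at 2.66 ± 0.170 and Blnk at 1.05 ± 0.335 CPM. The last 3 of the order, at 0.367 ± 0.214 (Il7r), 0.288 ± 0.202 (Ebf1) and 0.120 ± 0.113 CPM per kilobase (Rag1), did not differ beyond their spread. In Hdc-GFPlo the first 5 stood in the same order, and there Dntt (1.60 ± 2.12 CPM per kilobase, SD, n = 4) and Cnn3 (1.28 ± 0.787) were within their spread. Il7r came last in Hdc-GFPlo, at 0.0233 ± 0.0466 CPM per kilobase.

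The members did not vary as a single block across libraries. The library with the highest level was Hdc-GFPhi replicate 1 for 3 members, replicate 2 for 3 and replicate 3 for 2, Il7r included. The share of all genes tested with their highest level in a bright library was not computed, so these counts say nothing on direction. Rag1 and Ebf1 had the most alike profiles, with a mean absolute difference of 0.376 between standardized log2(CPM + 2) values over the 7 libraries, followed by Dntt and Ebf1 (0.462). For Rag1 and Ebf1 the highest libraries were Hdc-GFPhi replicate 2, then Hdc-GFPlo replicate 3, and no count of either was found in Hdc-GFPlo replicate 2. Il7r and Rag1 were the least alike pair (1.16), with Hdc-GFPhi replicate 3 highest for Il7r and next to lowest for Rag1.

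Hdc-GFPlo replicate 2 had no count of 4 members, Il7r, Dntt, Rag1 and Ebf1, against 1 member at 0 in each other Hdc-GFPlo library and 0 members in each Hdc-GFPhi library. Of the 66 genes of the wider lymphoid lists with a row, 15 (22.7%) had no count in that library, compared with 6 to 10 (9.09% to 15.2%) in the other 6. Among them were Cd79a, a signalling chain of the B cell receptor, and Igll1, a surrogate light chain of the pre-B cell receptor, which were counted 75 to 129 and 169 to 329 times in the Hdc-GFPhi libraries. Only 56 of the 66 passed the low-count filter, and genes that it removed, such as Pax5 and Lta, were among those without a count. Over all 12917 genes tested, 2.24% had no count in that library, against 1.28% to 2.79% in the others. These shares leave out the genes removed by the filter, so the 22.7% cannot be set against them. Hdc-GFPlo replicate 2 also had the lowest total count of the 7. The part of depth or of sampling 500 cells in these 0 counts was not tested.

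**Figure D3:**
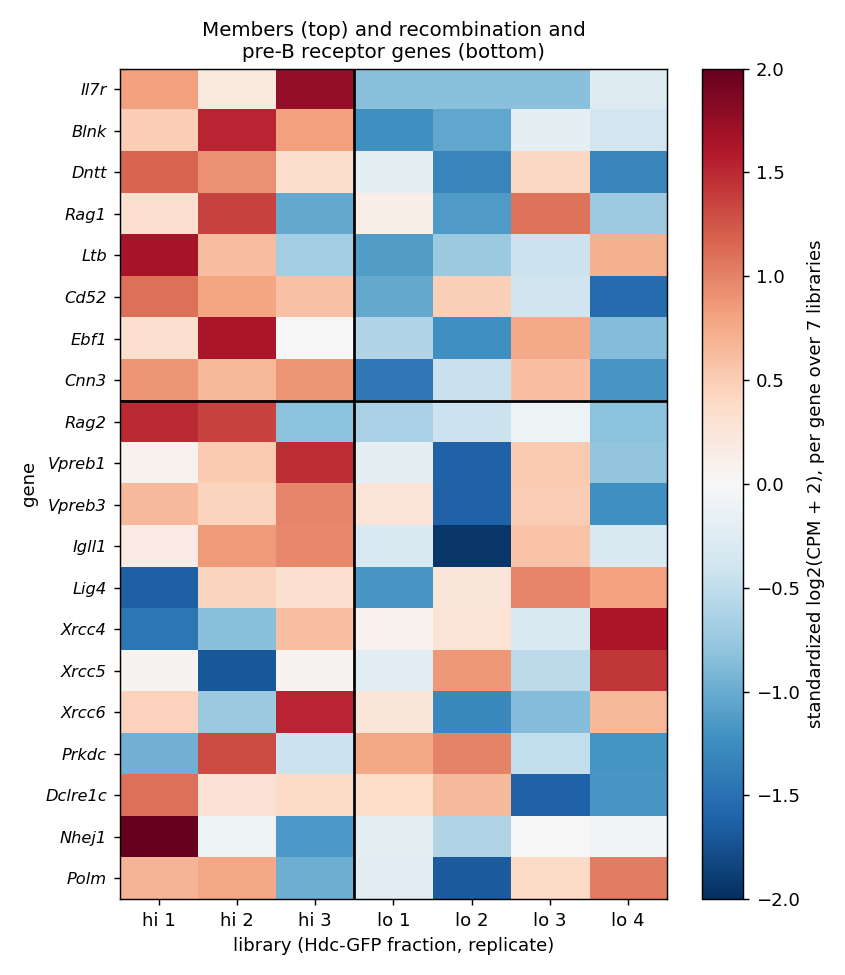
Standardized log2(CPM + 2) of the 8 members (top) and of the 12 tested genes of recombination and the pre-B cell receptor (bottom) in each library (columns), per gene over the 7 libraries; red is above and blue below the gene's mean. Hdc-GFPlo replicate 2 is low for Dntt, Rag1 and Ebf1 above the line and for Vpreb1, Vpreb3 and Igll1 below it, and the Xrcc genes do not follow the members.

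No gene of the wider lists of the lymphoid program passed edgeR. Of 67 genes listed, 66 had a row and 56 were tested, 36 with higher and 20 with lower values in Hdc-GFPhi (median log2 fold change 0.08). Of all genes tested, 51.6% had higher values, which is the share to set beside the counts of each list below. At an unadjusted p under 0.05, 3 were higher (4.92% of all genes tested) and 1 lower (7.31% of all genes). That total of 4 was 2 without Hdc-GFPhi replicate 2, without Hdc-GFPlo replicate 1, without Hdc-GFPlo replicate 4, or when the latter was left out together with Hdc-GFPhi replicate 1.

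Of the transcription factors of the program, 11 of 21 tested genes were higher by value and 10 lower, with a median of 0.02 on the log2 scale. Tcf12, which encodes the E protein HEB, was at 59.7, 67.4 and 63.5 CPM in Hdc-GFPhi and at 71.4, 88.4, 92.6 and 84.6 CPM in Hdc-GFPlo, with no overlap (log2 fold change -0.41, SE 0.12, edgeR adjusted p = 0.281). Id2, an inhibitor of E proteins, was at 16.2 ± 1.64 against 9.24 ± 4.08 CPM (0.81, SE 0.31, adjusted p = 0.347), and Hdc-GFPlo replicate 2 (15.3 CPM) lay among the bright libraries. The log2 fold changes of Tcf3, the gene for the E2A proteins, and Ikzf1, the gene for Ikaros, were -0.05 (SE 0.09) and -0.17 (SE 0.10).

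Spib, an Ets factor of B cells and plasmacytoid dendritic cells, had counts of 52, 36 and 216 in the bright libraries and of 27, 0, 28 and 5 in the dim ones (log2 fold change 2.72, SE 1.15, edgeR adjusted p = 0.389). Without Hdc-GFPhi replicate 3, the library that also held the natural killer and Ms4a1 counts, it was 1.42. Lef1, a Wnt-pathway factor of early lymphocytes named here after its values were seen, was the remaining factor at an unadjusted p under 0.05 (2.47, SE 1.10). Spib is also 1 of 6 markers listed for plasmacytoid dendritic cells, which summed to 99.8 to 165 CPM in the bright libraries and to 95.8 to 121 CPM in the dim ones. Of these 6, Siglech and Klk1 had at most 1 count in any library, and Ccr9 had 37 counts in Hdc-GFPhi replicate 2 and 0 elsewhere. Irf8 was at 20.9 ± 16.2 against 12.4 ± 5.94 CPM (0.76, SE 0.51), highest in Hdc-GFPhi replicate 1, and Tcf4 at 100.1 ± 23.4 against 94.9 ± 8.35 CPM (0.08, SE 0.15). All 3 tested markers of the list, Spib, Irf8 and Tcf4, thus had higher values in Hdc-GFPhi, with a median of 0.76, where 51.6% of all genes tested had higher values.

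Genes of recombination and the pre-B cell receptor had higher values in Hdc-GFPhi for 8 of 12 tested genes, and 0 of the 12 had an unadjusted p under 0.05 (median log2 fold change 0.22). Vpreb1, a gene of the surrogate light chain, was at 7.997 ± 3.61 against 3.71 ± 2.44 CPM (log2 fold change 1.11, SE 0.57, edgeR adjusted p = 0.466), with Hdc-GFPlo replicate 3 among the bright libraries. Xrcc5 and Xrcc6, the Ku subunits that bind broken DNA ends, had log2 fold changes of -0.18 (SE 0.14) and 0.08 (SE 0.09), and the nuclease gene Dclre1c, which opens hairpin ends, one of 0.48 (SE 0.31). Lig4, the ligase gene of end joining, had the lowest value of the list, -0.61 (SE 1.18).

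Receptors and kinases (14 tested) and surface markers of lymphoid-primed progenitors (9 tested) had medians of 0.03 and 0.12, and 0 genes of either list had an unadjusted p under 0.05. Values were higher in Hdc-GFPhi for 8 of the 14 and for all 9, where 51.6% of all genes tested were higher. Cd79a was at 4.77 ± 1.27 against 2.13 ± 2.31 CPM (1.16, SE 1.15), and Lck, a Src family kinase of T cells, at 24.9 ± 4.17 against 20.9 ± 4.79 CPM (0.25, SE 0.22). The value of Lck was -0.02 when Hdc-GFPhi replicate 1 was left out together with Hdc-GFPlo replicate 4. Ly86, the gene for MD-1, was at 6.52 ± 4.14 against 2.92 ± 3.08 CPM (1.16, SE 0.83). Cd27, a costimulatory receptor of progenitors and lymphocytes, and Rhoh, a hematopoietic GTPase gene, had values of 0.10 (SE 0.10) and 0.12 (SE 0.12).

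**Figure D4:**
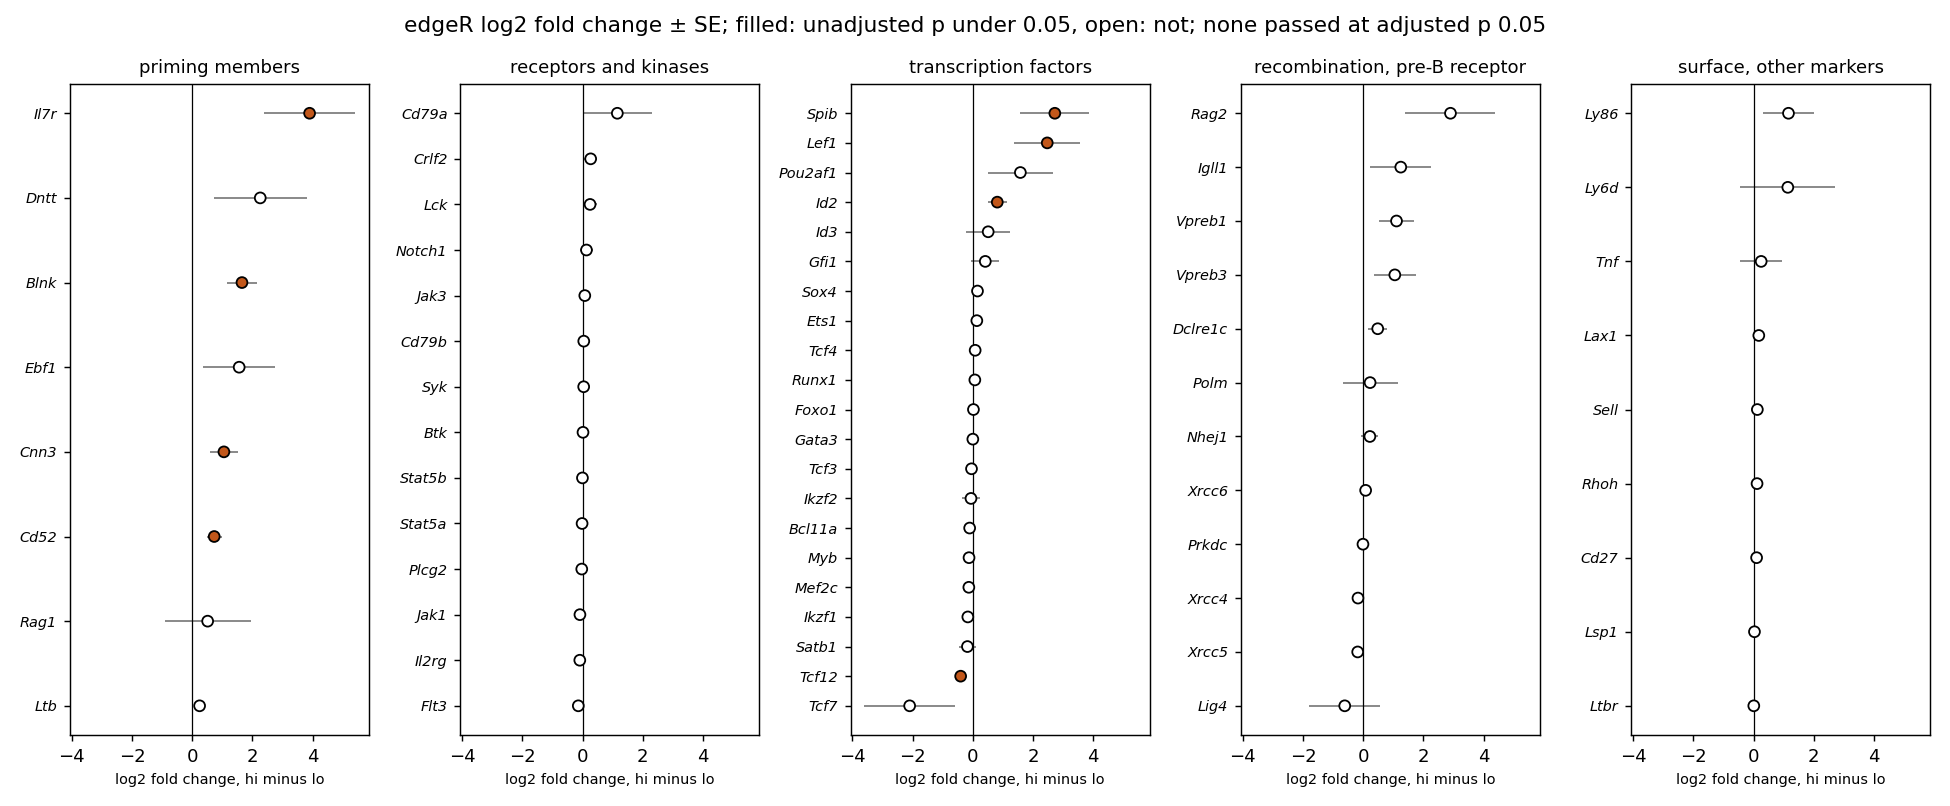
Log2 fold change (x axis, Hdc-GFPhi minus Hdc-GFPlo) with its standard error for the 8 members and for the 56 tested genes of the wider lists, by list; filled points have an unadjusted edgeR p under 0.05 and no gene passed at an adjusted p of 0.05. The 8 members lie from 0.25 to 3.90, the latter being Il7r, which passed the low-count filter only through Hdc-GFPhi. Most receptors and kinases lie within 0.3 of 0.

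Markers of other cell types were read in the same libraries, and none passed edgeR at an adjusted p of 0.05. The 5 megakaryocyte markers summed to 790.4 to 1049 CPM in the bright libraries and to 498 to 827 CPM in the dim ones. All 5 had higher values in Hdc-GFPhi, where 51.6% of all genes tested did, and 3 had an unadjusted p under 0.05, where 4.92% did. Among them Pf4 was at 186 ± 48.1 against 87.03 ± 13.7 CPM without overlap (log2 fold change 1.09, SE 0.18, edgeR adjusted p = 0.211, DESeq2 adjusted p = 1.26e-05). Itga2b and Vwf also passed in DESeq2 (adjusted p = 0.0321 and 0.0281), where 3.48% of all genes given an adjusted p did. The 10 neutrophil and myeloid progenitor markers summed to 6605 to 8262 CPM against 2800 to 6976 CPM, all 10 with higher values in Hdc-GFPhi and 4 at an unadjusted p under 0.05. The bright sums of both lists overlapped the dim ones. Of the 8 HSC markers, 7 had lower values in Hdc-GFPhi, as did 6252 of the 12917 genes tested. Kit and Hlf, 2 of the 8, were lower at an unadjusted p under 0.05, where 7.31% of all genes tested were. Kit also passed in DESeq2, with the lower value in Hdc-GFPhi (adjusted p = 0.00789). The 5 erythroid markers summed to 38.03 to 107 CPM against 34.9 to 72.1 CPM, with Hba-a1 and Hbb-b1 at 0 counts in every library. The 14 T and natural killer cell markers summed to 182 to 249 CPM against 171 to 183 CPM, largely Nkg7 (168 ± 21.9 against 143 ± 7.35 CPM), and 9 mature B and plasma cell markers to 88.6 to 103.5 CPM against 77.9 to 98.4 CPM. Mpo, the myeloperoxidase gene of myeloid progenitors, was at 1725, 566 and 226 CPM in Hdc-GFPhi and at 398, 393, 923 and 19.6 CPM in Hdc-GFPlo. It was highest and lowest in libraries where Dntt was highest and at 0, but in Hdc-GFPlo replicate 2, where Dntt was also at 0, it lay above Hdc-GFPhi replicate 3, where Dntt was at 9.58 CPM. The part of these cell types in the members' levels was not tested.

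Genes with library profiles most like those of 3 members were sought among genes of at least 5 CPM, by the mean absolute difference of standardized values over 7 libraries. For Il7r they were Dctn3, a dynactin subunit gene (0.153), Pf4, the platelet chemokine gene (0.162), and Edem2 (0.184). For Blnk they were Snrpd2, a core splicing protein gene (0.189), Spns1 (0.201) and Bax, a cell death effector gene (0.221). For Dntt they were Pisd (0.102), Mmp8, the neutrophil collagenase gene (0.132), and Tnip2 (0.136). Mmp8 had 3846, 3488 and 1205 counts in Hdc-GFPhi and 509, 67, 1444 and 0 counts in Hdc-GFPlo, with the same top 3 libraries as Dntt. No other lymphocyte gene of the fixed lists was among these 9. The limit on level kept Il7r, Blnk, Rag1, Ebf1 and other low genes of the lists, such as Rag2 and Spib, out of the search. That absence was therefore partly set in advance.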

How the data were processed

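RNA sequencing counts of 7 libraries were used, 3 of Hdc-GFPhi and 4 of Hdc-GFPlo. Per the labels' protocols, PicoPure RNA from 500 cells went through the SMARTer Ultra Low Input amplification and Nextera XT library kits. The deposited values are raw counts per gene, not normalized; the submitters' processing notes name bcl2fastq 1.8.4, Bowtie2, TopHat2, HTSeq 0.6.1 and mm9. The sources used here do not give the annotation or strand setting. Molecular identifiers are not mentioned, so amplified copies remain in the counts.

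Columns were matched to samples by library code. With edgeR 4.0.16 (R 4.3.3), genes were kept by filterByExpr (minimum count 10), scaled by TMM and tested with the robust quasi-likelihood F test on group, Benjamini-Hochberg adjusted over 12917 genes, threshold 0.05. Standard errors are the log2 fold change over the square root of F. Pairs of libraries differed beyond counting noise (chi-square per degree of freedom 25.4 to 143.5), and each was 1 replicate. Alternatives were 2 scalings, 2 filters, DESeq2 1.42.0, limma 3.58.1 with quality weights, a replicate block and omitted libraries. The edgeR step, but not the other methods, was tested on simulated data. The members, lists and alternatives were chosen with earlier results of these data known. Genes named were the 8 members, the 3 smallest p of each wider list, the 3 most alike profiles of Il7r, Blnk and Dntt, and marker genes; Lef1, Il2rg, Jak3, Flt3, Ltbr, Syk, Btk, Plcg2, Tcf3, Ikzf1, Lta, Tnf, Lig4, Igll1, Vpreb3, Xrcc5 and Xrcc6 were named for their role after values were seen. A listed gene that is not reported here was left out of the lists and figures. Exon lengths came from GENCODE vM21, and promoter windows and gene order from RefSeq GRCm38.p6.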

Additional observations from a re-analysis of the deposited data

Results flagged for a closer look

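In Hdc-GFPlo, the only group large enough to check, a library far from the other 3 was found for 5 of 29 genes checked. The rule is set to flag about 1 in 20 independent groups by chance. These genes are not independent of each other, so the count cannot be read against that rate. Il7r was at 0.435 CPM in replicate 4 and at 0 in the other 3, so it had to be flagged. Id2 was at 15.3 CPM in replicate 2 against 6.91 to 7.59 CPM in the others. The remaining genes were chosen for profiles like those of Il7r and Blnk: Dctn3 was at 81.7 CPM in replicate 4 against 73.01 to 74.03 CPM, Snrpd2 at 57.1 CPM in replicate 3 against 53.88 to 53.92 CPM, and Bax at 53.03 CPM in replicate 3 against 46.8 to 47.2 CPM. The cause was not tested.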

How the results depend on the processing

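No member that was given an adjusted p passed at 0.05 under any of the 15 alternatives. DESeq2 gave one for 3 members, and the filter of 5 CPM left 4 members. Of 116 member values under the alternatives, 115 were above 0, those of Il7r included, which passed the low-count filter only through Hdc-GFPhi. The exception was Rag1, at -0.39 without Hdc-GFPhi replicate 2 (range without 1 library -0.39 to 1.43). These values are refits of the same libraries for members named with earlier results known, so their count is not evidence of a direction. Over all genes, DESeq2 called 344, and the other 14 alternatives 0. The 4 members at an unadjusted p under 0.05, Il7r included, became 2 with the filter of 5 CPM in 3 libraries, which tested 4 members, 2 to 5 without 1 library, and 2 when Hdc-GFPhi replicate 1 was left out together with Hdc-GFPlo replicate 4. The 4 genes of the wider lists became 2 with that filter, 2 to 5 without 1 library, 2 without those 2 libraries, and 1 with the replicate block. The value of Lck, 0.25 with all libraries, was -0.0168 without those 2 libraries and 0.12 to 0.36 without 1 library. Pf4 passed in DESeq2, and so did the markers Itga2b, Vwf and Kit, the last with a lower value in Hdc-GFPhi. Otherwise the cause was not tested. Same-numbered libraries did not deviate together (r = -0.0142, -0.0362 and -0.144 across genes, which are not independent). For libraries of different number r was -0.103 to 0.142. With so few libraries per group these values cannot decide whether the numbers pair samples, so that is not known. With the replicate block 3 members, Il7r included, had an unadjusted p under 0.05 and 0 genes passed. With library totals as the only scaling, 826 genes were higher and 768 lower at an unadjusted p under 0.05, against 635 and 944 with TMM. At 3 counts as the floor, Il7r and Rag1 lie near the limit of depth in several libraries.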
